A study of Mus musculus with 4 samples.

Results

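Forkhead transcription factors share a DNA-binding domain, the forkhead or winged helix, and are named Fox with a letter for the subfamily and a number for the member. In the mouse embryo they control germ layers and organs, such as the Foxa factors in endoderm and the Foxc and Foxf factors in mesoderm. Others act in many adult cells, such as the Foxo factors, which insulin signalling moves out of the nucleus. In embryonic stem cells (ESCs), many genes of such developmental regulators are silenced by Polycomb proteins. Wapal releases the cohesin ring from DNA, and cohesin and the DNA-binding protein CTCF together hold distant stretches of chromatin in loops.

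The genes described were the protein-coding genes of GENCODE release M1 (mm9) whose symbol is Fox, 1 lower-case letter and a number, with an optional final letter. The rule found 43 genes among 22367 protein-coding genes on chromosomes 1 to 19, X and Y. Foxf1 stands in that annotation as Foxf1a. No protein-coding gene there is named Foxl1, so that Foxl1 is not among the 43 genes. The rule uses names only and no value of the lists.

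Tagged Wapal was mapped by ChIP-seq in mouse ESCs. The FB Wapal group consisted of 2 independently derived clones of BirA-expressing ESCs that also carry Wapal with a Flag tag and a tag that the ligase BirA biotinylates, beside their own untagged Wapal. The control was 1 library of ESCs that express BirA alone, and 1 library of sheared, unselected genomic DNA served as Input. Streptavidin recovered the biotinylated chromatin, and all libraries came from cells in standard ESC culture with no further treatment named in the labels. The authors deposited 1 list of 8497 regions for both clones together and 1 list of 266 regions for BirA, each called against Input. Any region of the first list with a base in common with BirA was dropped, which left 8323 Wapal-binding sites. The paper gives a slightly lower number after its own subtraction of BirA regions, so that its set of sites is not identical to this one. With 1 list per group there is no spread between replicates, so that all comparisons below are descriptions without a test. The lists hold no read counts, and the precision of a single site is unknown. ESC identity was not checked, because region lists hold no expression of marker genes.

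Of the 43 forkhead genes, 29 had a Wapal-binding site within 100 kb of the transcription start site (TSS) and none had one at the TSS itself. Distance was measured from the 5′ end of the gene to the near edge of the site. Closer than 2 kb there was no site at any of the 43 genes, where 2.03% of all protein-coding genes had one, a share at which 0 of 43 is near the background. A site lay within 10 kb of 6 genes (14.0%), against 9.13% of all protein-coding genes. Within 50 kb the number was 20 (46.5%), against 38.7%, and within 100 kb it was 29 (67.4%), against 60.1%. The median distance to the nearest site was 56.5 kb for forkhead genes and 72.5 kb for all protein-coding genes. With genes whose TSS lay within 100 kb of the next one counted as 1 locus, the shares were 15.0% of 40 forkhead loci against 20.0% of 5567 loci of protein-coding genes at 10 kb, 45.0% against 45.6% at 50 kb and 65.0% against 60.9% at 100 kb. These units are unlike, because only forkhead genes were joined to forkhead genes, whereas the 5567 loci join all 22367 genes and so hold more TSSs on average, and no order is read from them.

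**Figure D1:**
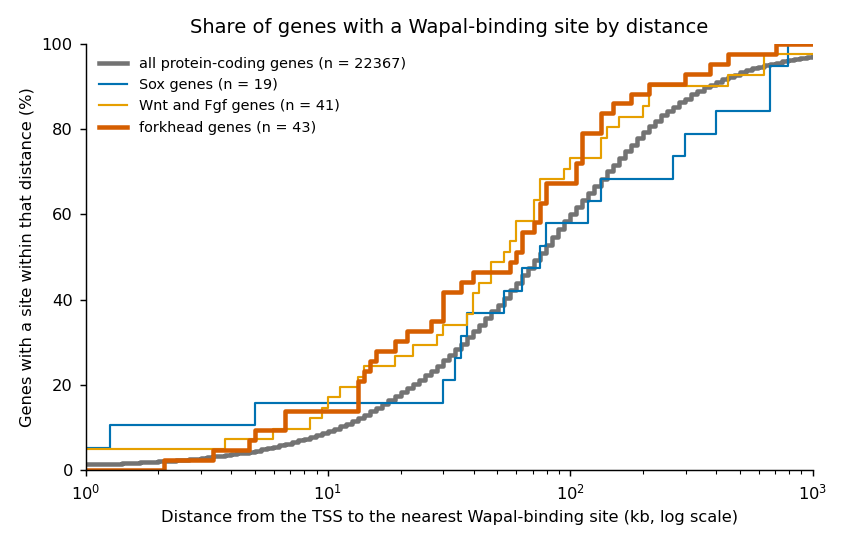
The percent of genes (y axis) whose nearest Wapal-binding site lies within the distance on the x axis (kb, log scale), for 43 forkhead, 19 Sox, 41 Wnt and Fgf and 22367 protein-coding genes. The forkhead line starts at 0 below 2 kb and lies above the line of all protein-coding genes at 10, 50 and 100 kb.

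For comparison, the Sox genes, which encode another family of developmental transcription factors, had a site within 10 kb in 3 of 19 cases (15.8%), within 50 kb in 36.8% and within 100 kb in 57.9%. Of the 41 genes for Wnt and Fgf ligands, 17.1% had a site within 10 kb, 48.8% within 50 kb and 73.2% within 100 kb. Within 2 kb of the TSS there was a site at 2 Sox genes and at 2 Wnt or Fgf genes, but at no forkhead gene. These numbers are small, and no difference between the families was tested.

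The forkhead gene closest to a Wapal-binding site was Foxc2, a regulator of mesenchyme and lymphatic vessels (chromosome 8, 123640071 to 123642792, forward strand). The site, chr8:123636909-123638015, ended 2056 bp upstream of the TSS. Its score was 270.2, and it ranked 140 of all Wapal-binding sites. The score is the negative log10 of the MACS p-value multiplied by 10, so that the authors' threshold of 1e-05 corresponds to 50. Foxm1, which activates genes for the entry into mitosis, had a site 3342 bp upstream with a score of 98.3. That site was assigned to a promoter, since its centre lay within 2 kb of an annotated TSS, and the TSS of the coding gene 5930416I19Rik lay between it and Foxm1. A second site of Foxm1 lay 44.0 kb upstream (score 86.1). Foxi1, a regulator of the inner ear and of acid-secreting kidney cells, had a site 4531 bp upstream with a score of 136. Foxi2, a relative of Foxi1, had one 6315 bp upstream with a score of 97.4.

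Foxo1 and Foxf2 each had 2 sites within 10 kb. At Foxo1, an insulin-regulated factor of metabolism, both lay upstream, at 5001 bp (score 67.5) and 9330 bp (score 52.5). At Foxf2, which acts in the mesenchyme of the gut and palate, 1 site lay 6655 bp upstream (score 101) and 1 lay 6594 bp downstream of the TSS (score 63.0), past the 3′ end of the gene. The upstream site of Foxf2 was assigned to a promoter by the rule given for Foxm1. Of the 6 genes, 5 thus had their nearest site upstream. With only sites that score at least 100, Foxc2, Foxi1 and Foxf2 were the 3 genes that still had a site within 10 kb.

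Most sites near forkhead genes held a match to the 12-base core motif of CTCF, which has a direction, and the sequences of the sites closest to a gene are given to show its match and strand. The 60-base windows of mm9 around the best match, read 5′ to 3′ on the strand of the core, are shown for 5 of the 6 genes, with the core in capitals and its mismatches counted.
Foxc2 upstream site, chr8:123637636-123637695, reverse strand, 1 mismatch: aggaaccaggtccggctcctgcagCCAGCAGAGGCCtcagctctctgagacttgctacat
Foxm1 upstream site, chr6:128309193-128309252, reverse strand, 1 mismatch: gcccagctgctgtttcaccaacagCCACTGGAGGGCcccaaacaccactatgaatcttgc
Foxi1 upstream site, chr11:34113086-34113145, reverse strand, 1 mismatch: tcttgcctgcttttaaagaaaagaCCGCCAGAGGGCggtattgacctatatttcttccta
Foxi2 upstream site, chr7:142595264-142595323, forward strand, 0 mismatches: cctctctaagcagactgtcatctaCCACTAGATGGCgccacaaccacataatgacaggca
Foxf2 downstream site, chr13:31724522-31724581, reverse strand, 1 mismatch: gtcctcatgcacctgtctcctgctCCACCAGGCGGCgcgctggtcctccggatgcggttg
Foxf2 upstream site, chr13:31710542-31710601, reverse strand, 2 mismatches: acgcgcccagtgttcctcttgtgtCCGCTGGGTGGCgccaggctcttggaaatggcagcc

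Only the window of Foxi2 held the core without a mismatch, and that of the upstream site of Foxf2 had 2. The core lay on the strand that points at the gene at Foxi1, at Foxi2 and in the downstream site of Foxf2. It pointed away from the gene at Foxc2 and Foxm1. At Foxc2 it thus pointed upstream, toward Foxf1a.

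Between 10 and 50 kb from the TSS, 14 more forkhead genes had their nearest site. The closest of these were Foxe1, a thyroid regulator, at 12.8 kb downstream with a score of 58.9, and Foxr1 at 13.0 kb upstream with a score of 64.5. The site of Foxr1 lay over the TSS of another gene, Upk2. Foxk1 followed at 13.2 kb, with the lowest score of all sites near the family, 50.5. Foxc1, a regulator of the eye and of mesoderm, had its site 13.5 kb upstream with a score of 213, which ranked 341. At Foxj1, which drives the formation of motile cilia, the site lay 15.7 kb downstream with a score of 250.3 and ranked 190. Foxo3, Foxs1, Foxe3, Foxb2, Foxf1a, Foxd4, Foxb1, Foxj2 and Foxd2 completed this class, at 14.5 to 38.1 kb. The core windows of the Foxj1 and Foxc1 sites are shown because, after the site at Foxc2, these had the highest scores near the family.
Foxj1 downstream site, chr11:116180455-116180514, forward strand, 0 mismatches: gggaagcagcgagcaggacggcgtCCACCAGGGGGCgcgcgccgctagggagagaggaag
Foxc1 upstream site, chr13:31884527-31884586, forward strand, 1 mismatch: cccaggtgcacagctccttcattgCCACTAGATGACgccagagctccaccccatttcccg

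The core was exact at Foxj1 and had 1 mismatch at Foxc1, and it pointed at the gene in both. The high scores at Foxc2, Foxj1 and Foxc1 were the upper end of an otherwise ordinary range. The 42 distinct sites within 100 kb of a forkhead TSS had a median score of 85.5 and ranged from 50.5 to 270.2. All Wapal-binding sites had a median of 81.4. A score of at least 100 was reached by 33.3% of the 42 sites and by 34.6% of all sites, and their median widths were 845.5 and 812 bp.

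**Figure D2:**
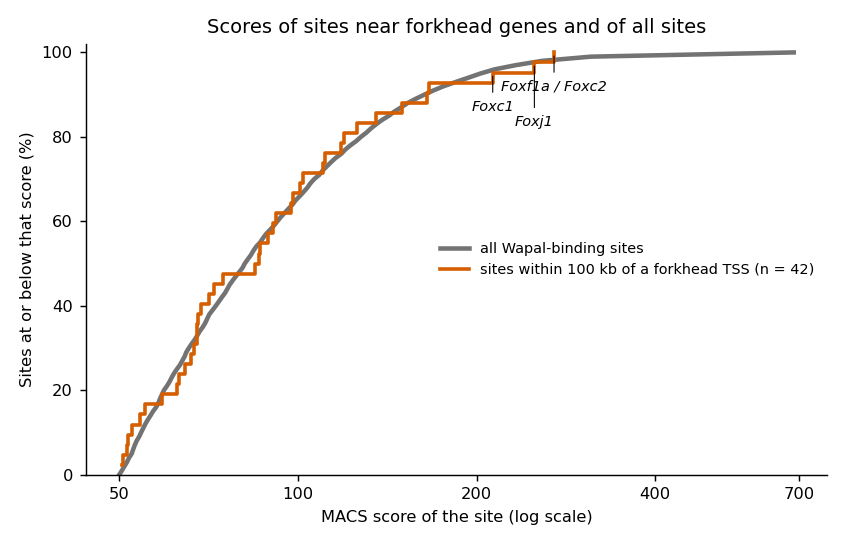
The percent of sites (y axis) at or below a MACS score (x axis, log scale), for the 42 sites within 100 kb of a forkhead TSS (orange steps) and for all Wapal-binding sites (grey line). The lines run close together, with medians of 85.5 and 81.4, and the sites named are the 3 with the highest scores.

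Between 50 and 100 kb lay the nearest sites of 9 genes, namely Foxr2, Foxo6, Foxq1, Foxa2, Foxn2, Foxa1, Foxo4, Foxi3 and Foxh1. Foxh1 carries Nodal signals to DNA together with Smad proteins, and its only site within 100 kb lay 75.1 kb upstream, in an intron of Arhgap39, with the TSSs of 7 other coding genes in between. For Foxa2, a regulator of endoderm and the node, 2 sites lay close to each other upstream, at 63.0 kb (score 86.2) and 64.8 kb (score 89.2), and no other coding TSS lay between them and the gene. Foxa1, a pioneer factor in endoderm, had its site 73.7 kb downstream in an intron of Mipol1 (score 68.7).

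No site lay within 100 kb of the other 14 genes (39.9% of all protein-coding genes had none). Among them were Foxn1, Foxp3, Foxl2, Foxd1, Foxd3, Foxj3, Foxk2, Foxa3, Foxp4, Foxp1, Foxn3, Foxn4 and Foxp2. Foxd3, a factor of the epiblast and the neural crest, had its nearest site 110 kb downstream with a score of 62.2. The 4 farthest were Foxp1 at 294 kb, Foxn3 at 365 kb, Foxn4, a factor of the retina, at 429 kb and Foxp2, a factor of neurons, at 693 kb. More than 200 kb separated 5 forkhead genes, and 20.5% of all protein-coding genes, from a site. Foxn4 and Foxp2 were the 2 genes beyond 400 kb (8.78% of all protein-coding genes). The distant sites of Foxp1, Foxn4 and Foxp2 had scores from 59.05 to 70.3, and that of Foxn3 had 159. A strong site also stood beyond 100 kb from Foxp4, a factor of lung and brain, at 176 kb with a score of 201.

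**Figure D3:**
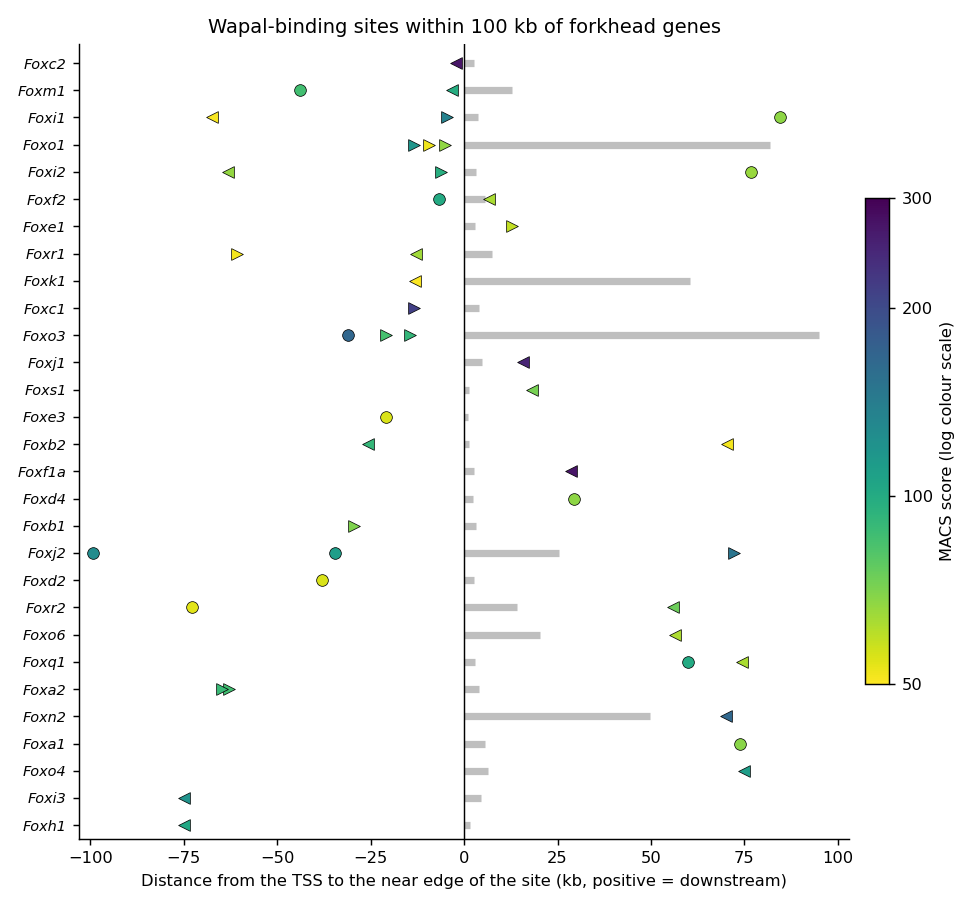
Wapal-binding sites within 100 kb of the TSS of the 29 forkhead genes that have one, ordered from the nearest site down, by distance in kb along the direction of transcription (x axis). Grey bars are the genes, triangles point the way the CTCF core reads, circles are sites with no core or with cores on both strands, and the colour gives the MACS score. Foxo1 and Foxo3 each have 3 sites upstream, and no site lies within 2 kb of a TSS.

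Of the 43 genes, 17 had 1 site within 100 kb, 7 had 2 and 5 had 3. At least 2 sites lay near 12 genes (27.9%, against 27.0% of all protein-coding genes), and 3 sites lay near 11.6% (at least 3 near 9.07%). The genes with 3 were Foxo1, Foxo3, Foxi1, Foxi2 and Foxj2. At Foxi1 and Foxi2 the sites were spread over both sides of the gene, and the 2 farther sites of each were weak, with scores of 50.7 (67.6 kb upstream) and 67.8 (84.6 kb downstream) at Foxi1 and of 66.8 (63.2 kb upstream) and 65.9 (76.9 kb downstream) at Foxi2. The 3 sites of Foxj2 lay at 34.5, 72.3 and 99.3 kb, all with scores from 111 to 149.6 and all beyond the TSS of at least 1 other coding gene. The farthest of them was closest to Nanog, the pluripotency factor, 12.3 kb from its TSS.

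The 3 sites of Foxo1 (chromosome 3, TSS at 52072259, forward strand) and the 3 of Foxo3 (chromosome 10, TSS at 41996561, reverse strand) were all upstream and had no other coding TSS between them and the gene. At Foxo1 they lay 5001 bp, 9330 bp and 13.5 kb away, with scores of 67.5, 52.5 and 118. At Foxo3 they lay 14.5, 21.0 and 31.2 kb away, with scores of 91.9, 84.8 and 166. The farthest site of Foxo3 was assigned to a promoter, since its centre lay within 2 kb of an annotated TSS. At both genes the farthest of the 3 had the highest score. Their windows are shown because the direction of the core repeats among them.
Foxo1 upstream site at 5001 bp, chr3:52066482-52066541, forward strand, 1 mismatch: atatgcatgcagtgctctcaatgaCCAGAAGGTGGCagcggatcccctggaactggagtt
Foxo1 upstream site at 9330 bp, chr3:52061734-52061793, forward strand, 1 mismatch: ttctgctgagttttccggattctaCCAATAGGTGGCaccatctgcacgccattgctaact
Foxo1 upstream site at 13.5 kb, chr3:52057971-52058030, forward strand, 0 mismatches: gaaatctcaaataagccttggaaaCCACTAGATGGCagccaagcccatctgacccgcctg
Foxo3 upstream site at 14.5 kb, chr10:42011342-42011401, reverse strand, 1 mismatch: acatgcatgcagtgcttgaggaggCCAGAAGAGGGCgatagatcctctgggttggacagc
Foxo3 upstream site at 21.0 kb, chr10:42017937-42017996, reverse strand, 1 mismatch: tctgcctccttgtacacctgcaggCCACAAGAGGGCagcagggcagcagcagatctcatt
Foxo3 upstream site at 31.2 kb, chr10:42028097-42028156, forward strand, 2 mismatches: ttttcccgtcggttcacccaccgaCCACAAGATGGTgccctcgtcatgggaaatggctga

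At Foxo1 all 3 cores lay on the forward strand and pointed at the gene. At Foxo3 those of the 2 nearer sites lay on the reverse strand and also pointed at the gene, whereas the best match in the farthest site had 2 mismatches and lay on the other strand. The remaining Foxo genes had 1 site each within 100 kb. Foxo4, on the X chromosome, had it 74.9 kb downstream with a score of 110.3, beyond the TSSs of 5 other coding genes. Foxo6, which is expressed in the brain, had it 56.5 kb downstream with a score of 62.6. Both cores had 1 mismatch and pointed at the gene. All 4 Foxo genes thus had a site within 100 kb, and the nearest core pointed at the TSS in each. Over all protein-coding genes, 60.1% had a site within 100 kb and 48.7% of the nearest assigned cores pointed at the TSS, and 4 genes are too few to set apart from these shares.

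Over the whole family there were 46 pairs of a gene and a site within 100 kb, and the core could be given a strand in 33 of them. It pointed toward the TSS in 22 of the 33 pairs (66.7%). Over the same pairs of all protein-coding genes the share was 46.4%. This count was added after the sites had been seen, and the pairs are not independent, because 4 sites belong to 2 genes each. Without Foxo1 and Foxo3 it was 17 of 28 (60.7%). For the nearest site of each gene alone it was 15 of 23 (65.2%), against 48.7% of all protein-coding genes.

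The 42 distinct sites held the core with at most 1 mismatch in 76.2% (32 sites, 95% Wilson interval 61.5 to 86.5%, for counting error only), against 74.5% of all Wapal-binding sites. Regions of the same width 5 kb to either side of the 42 sites held it in 13.1%, and those beside all sites in 10.0%. An exact core was in 16.7% of the 42 sites (8.32 to 30.6%), against 28.3% of all sites. By its centre, 4 sites lay in a promoter of any gene (9.52%, against 9.90% of all sites), 10 in introns (23.8% against 33.3%) and 28 in extragenic regions (66.7% against 54.1%). None lay in an exon, against 2.64% of all sites, a share at which 0 of 42 is near the background. For 21 of the 42 sites the nearest coding TSS was that of a forkhead gene, and for the other 21 it belonged to another gene.

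Sites inside forkhead genes were few. Only the gene Foxp1 overlapped a site (1 of 43 genes, against 12.1% of all protein-coding genes), and that site, with a score of 59.05, lay 294 kb downstream of the 5′ end. Forkhead genes are short, with a median length of 5.49 kb against 15.4 kb over all protein-coding genes. Sox genes are as short (4.795 kb), whereas Wnt and Fgf genes are longer (22.2 kb). Summed over the family, forkhead genes span 1.86 Mb, which gave 0.538 sites per Mb of gene, against 3.46 over all protein-coding genes. Much of that length belongs to 3 long genes, Foxp2 (540629 bp), Foxp1 (341195 bp) and Foxn3 (255072 bp). Neither Foxp2 nor Foxn3 overlapped a site. The part of gene length in the difference was not tested.

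The choice of the TSS mattered for genes with several promoters. Measured from the nearest TSS of any transcript, the site of Foxp1 lay 31.2 kb away instead of 294 kb, that of Foxj3 46.0 kb instead of 128 kb and that of Foxr2 47.7 kb instead of 55.8 kb. The number of forkhead genes with a site within 50 kb was then 23 (53.5%, against 42.5% of all protein-coding genes), and within 10 kb it was again 6 (14.0%, against 12.3%).

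Some forkhead genes lie side by side. Foxf1a and Foxc2, which both act in mesoderm, are 31.8 kb apart on chromosome 8, and the site 2056 bp upstream of Foxc2 was the only one within 100 kb of either. It lay 28.6 kb downstream of the TSS of Foxf1a, with the TSS of Mthfsd in between. Foxq1 and Foxf2 are 67.6 kb apart on chromosome 13, and Foxc1 follows 181 kb after Foxf2. The sites of Foxf2 on either side, 13.2 kb apart, were also the nearest to Foxq1, 60011 bp and 74.2 kb downstream, and the strong site upstream of Foxc1 lay between Foxf2 and Foxc1. Foxd2 and Foxe3, 17.2 kb apart on chromosome 4, shared a site with a score of 55.3 that lay 20.9 kb upstream of Foxe3 and 38.1 kb upstream of Foxd2. Its best core had 2 mismatches.

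**Figure D4:**
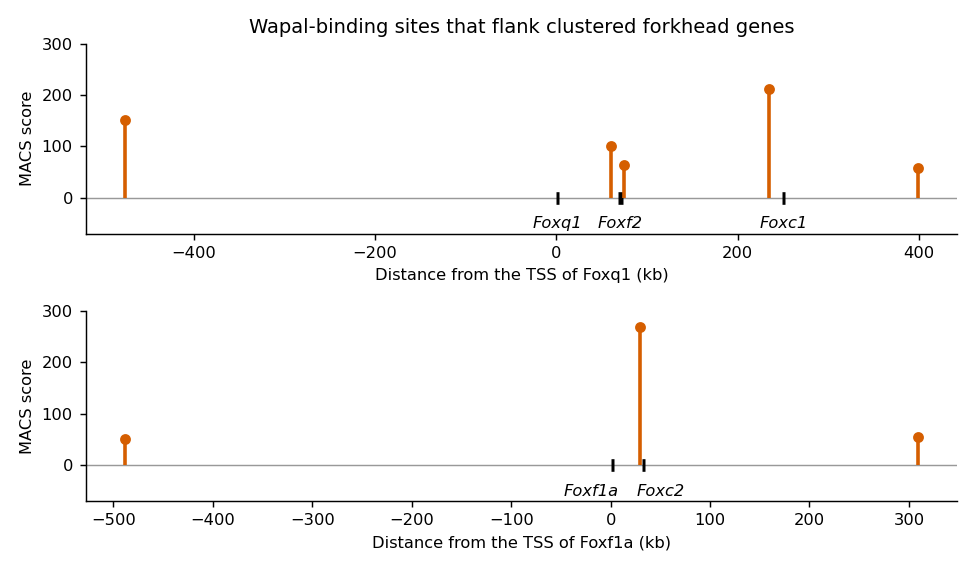
MACS scores (y axis) of the Wapal-binding sites that flank Foxq1, Foxf2 and Foxc1 (top) and Foxf1a and Foxc2 (bottom), by distance in kb from the TSS of the first gene (x axis), with genes as black bars. A site stands between Foxf1a and Foxc2 (score 270.2), on each side of Foxf2 (101 and 63.0) and just upstream of Foxc1 (213).

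Each TSS lies in an interval between a Wapal-binding site on its left and one on its right. Foxk2 had no site on its right before the end of the chromosome, which left 42 genes. The median interval was 307 kb, against 366 kb over all protein-coding genes. The shortest held Foxf2 alone (13.2 kb), followed by those of Foxi2 (83.2 kb), Foxi1 (89.1 kb) and Foxb2 (96.2 kb), and none of these 4 held another coding TSS. The longest was that of Foxp2, at 2770 kb with 3 other coding TSSs. Intervals over 1 Mb held 4 genes (9.52%, against 15.9%), among them Foxp2, Foxn3 and Foxa1.

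**Figure D5:**
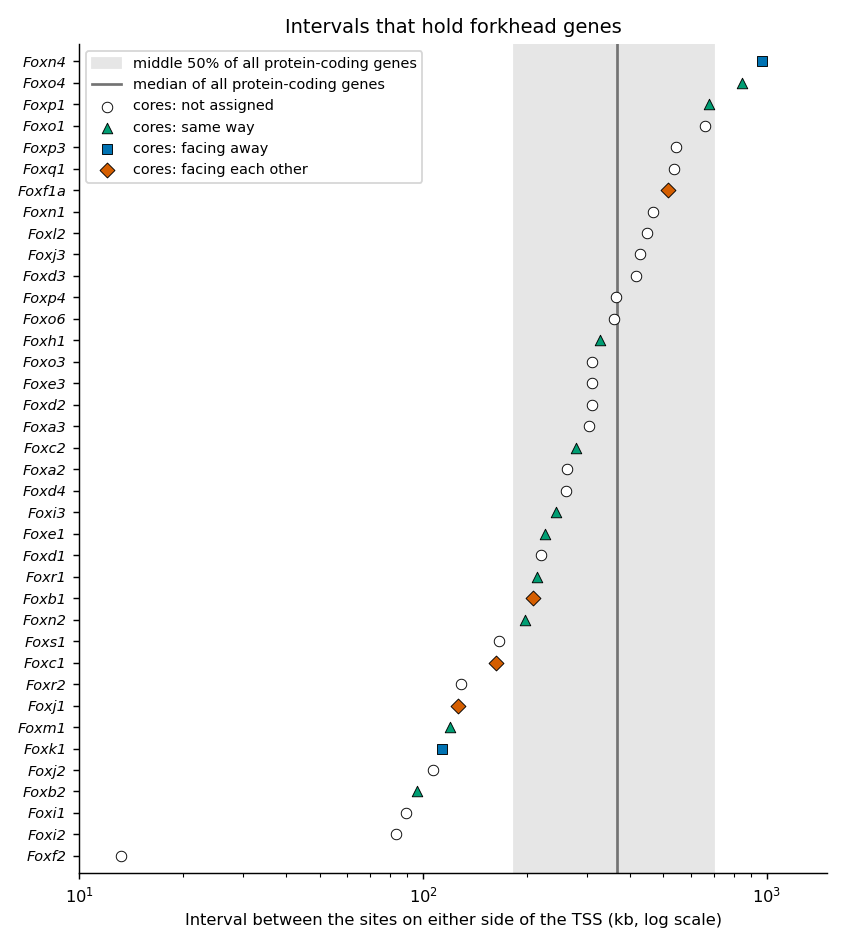
Length in kb (x axis, log scale) of the interval between the sites on either side of the TSS for the 38 forkhead genes with an interval of at most 1 Mb, with the median (line) and the middle 50% (band) of all protein-coding genes. Symbols give the directions of the 2 cores. Lengths run from 13.2 kb at Foxf2 to 969 kb at Foxn4, with 4 genes between cores that face each other.

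CTCF sites at the 2 ends of a chromatin loop tend to carry cores that face each other. Both flanking cores could be given a strand at 18 forkhead genes. They faced each other at 5 of these (27.8%, against 26.5% of all protein-coding genes), namely Foxb1, Foxc1, Foxf1a, Foxj1 and Foxn3. They read the same way at 11 (61.1%, against 45.6%) and faced away from each other at 2, Foxk1 and Foxn4 (11.1%, against 27.8%). The share of facing pairs was near the background, and those of the other classes differed from it in these small numbers, without a test. Sox genes likewise had few pairs that faced away (7.69% of 13) and 53.8% that read the same way. For Wnt and Fgf genes these shares were 23.1% and 50% of 26 pairs.

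Around forkhead genes the median number of other coding TSSs within 100 kb was 2, against 3 around all protein-coding genes. It was also 2 around Sox genes and around Wnt and Fgf genes. At 10 of 43 forkhead genes there was no other coding TSS within 100 kb, a larger share than the 12.2% (2738 of 22367) of all protein-coding genes. No other coding TSS lay between the gene and its nearest site at 23 of 43 (53.5%), against 38.8%. The nearest site was upstream at 24 genes and downstream at 19, and it was upstream at 51.0% of all protein-coding genes. The part of gene density in the distances was not tested.

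By known roles, all 4 annotated genes of the mesoderm list (Foxc1, Foxc2, Foxf1a, Foxf2) had a site within 50 kb, and 2 had one within 10 kb, but Foxc2 and Foxf1a count the same site. Over all protein-coding genes the shares were 9.13% within 10 kb, 38.7% within 50 kb and 60.1% within 100 kb. In the neural and sensory list 7 of 10 had a site within 50 kb and 8 within 100 kb, but Foxd2 and Foxe3 count the same site. Of the insulin-regulated Foxo genes, 2 of 4 had one within 50 kb. Of 9 genes with roles in the cell cycle, cilia or many tissues, 4 had one within 50 kb. Of 4 genes with roles in the early embryo and pluripotent cells, only Foxo1 had one within 50 kb of the 5′ end. Foxp1, also on that list, had one 31.2 kb from the nearest TSS of any of its transcripts. None of the 3 Foxa genes had one within 50 kb, and 2 had one within 100 kb. The lists are too small to rank.

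Genes outside the family that act on or with forkhead proteins were counted in the same way. Of 9 regulators of Foxo proteins, such as the Akt kinases, none had a site within 10 kb, 3 had one within 50 kb (among them Pik3ca at 17.2 kb and Pdpk1 at 22.2 kb) and 7 had one within 100 kb. Of 7 receptors and partners in the Nodal pathway that Foxh1 serves, none had a site within 10 kb, 1 had one within 50 kb (Tdgf1, the co-receptor Cripto, at 22.8 kb) and 4 had one within 100 kb. Their median distances were 71.6 and 79.8 kb. Against shares of 9.13%, 38.7% and 60.1% of all protein-coding genes, these small counts show nothing particular to either list.

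Within 100 kb of the 43 forkhead TSSs there was no BirA region, and the nearest lay 277 kb from Foxa3. Of all protein-coding genes 3.32% had one within 100 kb, a share at which 0 of 43 is near the background. No region of the FB Wapal list near a forkhead gene was removed, so that the counts and distances of forkhead genes are the same with all 8497 regions of that list. The shares of all protein-coding genes then become 9.50% within 10 kb, 39.3% within 50 kb and 60.7% within 100 kb.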

How the data were processed

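ChIP-seq lists from mouse ESCs were analysed for 2 FB Wapal clones (1 joint list) and 1 BirA line, both called against 1 Input. Uniquely placed reads on mm9 (Bowtie) were the authors' basis for calling regions with MACS 1.4.2 at a p of 1e-05. Each deposited region carries its MACS score, 10 times the negative log10 p-value, which is not normalized between lists. The rule that joined the clones is not given in the sources used here. Pairs of duplicated or near-identical genes can lose unique reads, and sites there could be missed.

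Starting from the lists, regions with 1 or more bases in common with BirA were dropped. Genes were the protein-coding genes of GENCODE M1, whose assembly (NCBIM37) is mm9, and every region lay within its chromosomes. Distances ran from the 5′ end of the gene to the near edge of a site. The CTCF core (12 bases) was searched on both strands with at most 1 mismatch. A site with equally good cores on both strands was given no direction. The shares of sites near forkhead genes with the core carry 95% Wilson intervals. No test was made, since 1 list per group allows none. The members, lists and settings were chosen with earlier results of these data known.

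Genes described in full were those with a site within 10 kb, the 5 with the most sites, the 5 farthest, those with the highest scores and those beside another forkhead gene. Values of some genes are not reported here. Alternatives covered BirA removal, a score of at least 100, the TSS, the point of measurement, autosomes, loci and the motif. The functions were tested on simulated data. Python 3.11.15 with numpy 2.4.6, scipy 1.17.1 and matplotlib 3.10.9 was used.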

Additional observations from a re-analysis of the deposited data

How the results depend on the processing

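No paired analysis was possible because both FB Wapal clones are joined in the list used here and the other groups hold 1 library each. Lists of the single clones were not used here, so that no replicate was left out. When only sites scoring 100 or more were used, forkhead genes with a site fell to 3 within 10 kb, 9 within 50 kb and 14 within 100 kb, their median distance rose to 190.1 kb and their median number of sites within 100 kb became 0. All protein-coding genes fell with them, to 691, 3394 and 6212 genes, with a median distance of 234 kb and a median of 0 sites. The shares were 6.98% against 3.09% within 10 kb, 20.9% against 15.2% within 50 kb and 32.6% against 27.8% within 100 kb. Counting neighbouring genes as 1 locus gave 1114, 2538 and 3389 loci of protein-coding genes within the 3 distances, with more genes per locus on average than the forkhead loci, so that the shares of both are not comparable. The core motif was in 16.7% of the sites near forkhead genes with no mismatch (28.3% of all sites) and in 97.6% with at most 2 (96.5% of all sites and 66.7% of the regions beside the sites near forkhead genes). With no mismatch, flanking cores faced each other at 2 of 3 genes, too few to read a share from. With sites scoring 100 or more they did so at 6 of 19 (31.6%), against 5 of 18 (27.8%) in the main setting. The share over all protein-coding genes at that score is not given here, so that no rise is read from these counts. The removal of BirA regions, the centre of the site, the TSS of any transcript and autosomes alone left the counts of forkhead genes within 1.5 times. The share of cores pointing toward the TSS ran from 60.7% (17 of 28 pairs) to 71.4% (5 of 7) over settings chosen after seeing the data. Over all protein-coding genes it ran from 45.8 to 48.7% in these settings. The settings reuse the same pairs of forkhead genes, so that they do not check each other. The lists hold no reads, so that depth could not be set beside any site.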

Other observations

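In the 500 bp on either side of the TSS, the ratio of observed to expected CpG had a median of 0.734, against 0.549 over all protein-coding genes, 0.769 over Sox genes and 0.628 over Wnt and Fgf genes. The 4 forkhead genes of the mesoderm list ran from 0.850 at Foxf1a to 0.993 at Foxc2. The 6 lowest ratios stood at Foxr2 (0.129), Foxn1 (0.180), Foxn3 (0.232), Foxp3 (0.241), Foxp1 (0.248) and Foxk2 (0.251). Of these only Foxr2 had a site within 100 kb of the 5′ end, against 67.4% of all 43 forkhead genes. Measured from the nearest TSS of any transcript, Foxp1 had one as well, at 31.2 kb. The CpG ratio, however, was taken at the 5′ end of each gene only and not at other promoters. The next lowest ratios were those of Foxi1 (0.292), with 3 sites within 100 kb, and Foxh1 (0.293), with 1. The high ratio of Foxp2 (0.834) stood at the gene farthest from a site. The genes named here were chosen after their values were seen, and no relation to the distance of a site was tested.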
